A study of Rattus norvegicus with 12 samples.

Results

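The response of the neonatal left ventricle (LV) to volume overload (VO) was read from 6 of the 12 libraries of the study, the 3 VO LV and the 3 sham LV libraries, over all genes of the deposited table. Sprague-Dawley rats had a fistula made by needle between the abdominal aorta and the inferior vena cava (VO), or a sham operation, at P1 (postnatal day 1), and the free wall of the LV was taken at P7 (postnatal day 7). The labels name no transgene, and do not say which animal or litter gave a library, so the replicate numbers name libraries only and p-values measure the spread between these libraries. The other 6 libraries are the free walls of the right ventricle (RV) after the same operations. Of 32545 listed genes, 13910 had a mean of at least 0.5 FPKM (fragments per kilobase of transcript, scaled to the mapped reads of the library) over the 12 libraries and were tested, and the other 18635 were left out.

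A fistula of this kind returns arterial blood to the great veins, so both ventricles must pump an added volume at each beat. Cardiomyocytes under such a load release natriuretic peptides, alter their calcium handling and sarcomeres, and shift between glucose and fatty acids as fuel. In the first postnatal week they are also leaving the cell cycle and turning to oxidative metabolism, which insulin, thyroid hormone and adrenergic signals help to direct.

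The LV libraries held 14159816 to 16871371 reads on genes, and 17128 to 17807 genes were above 0. All 16 tested cardiomyocyte markers were above 1 FPKM in sham LV, and their summed level was 37810 to 39830 FPKM in sham LV and 39210 to 42690 FPKM in VO LV, so the label of the tissue was borne by its markers. The labels give no sex, and Y-linked transcripts were unevenly spread over the groups. Eif2s3y and Ddx3y, both on the Y chromosome, were at 33.9 and 22.4 FPKM in sham LV replicate 1 and at 31.6 and 25.6 FPKM in replicate 2, and at 0 in sham LV replicate 3 and in all 3 VO LV libraries. XIST_intron, a motif of the RNA of the inactive X chromosome, had the opposite pattern, with 0 in sham LV replicates 1 and 2 and 583 to 1090 FPKM in the other 4. Sham LV replicate 2 also stood apart in the share of its reads on mitochondrial genes, 14.4% against 17.4% to 26.2% in the other 5. Counts and list medians below are therefore also given where it matters for the 7 libraries of both ventricles without Y-linked transcripts. There sham LV and sham RV are each replicate 3 alone, so neither sham group gives a spread. Both are assumed to vary like the VO groups.

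At a Benjamini-Hochberg adjusted p under 0.05 from limma and a fold change over 1.3, 13 of 13910 genes differed between VO LV and sham LV (0.0935%). They comprised 10 genes that rose and 3 that fell, and the libraries of the groups did not overlap for any of the 13. Many more genes lay just outside, since 260 genes passed at an adjusted p under 0.06 and 954 (6.86%) under 0.10, with 700 of the 954 higher in VO LV and 254 lower. At an unadjusted limma p under 0.05 with the same fold, used below only to describe groups of genes, 2186 genes (15.7%) were counted, 1290 of them higher (9.27%) and 896 lower (6.44%). The VO LV and sham LV libraries did not overlap for 4507 genes (32.4%).

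**Figure D1:**
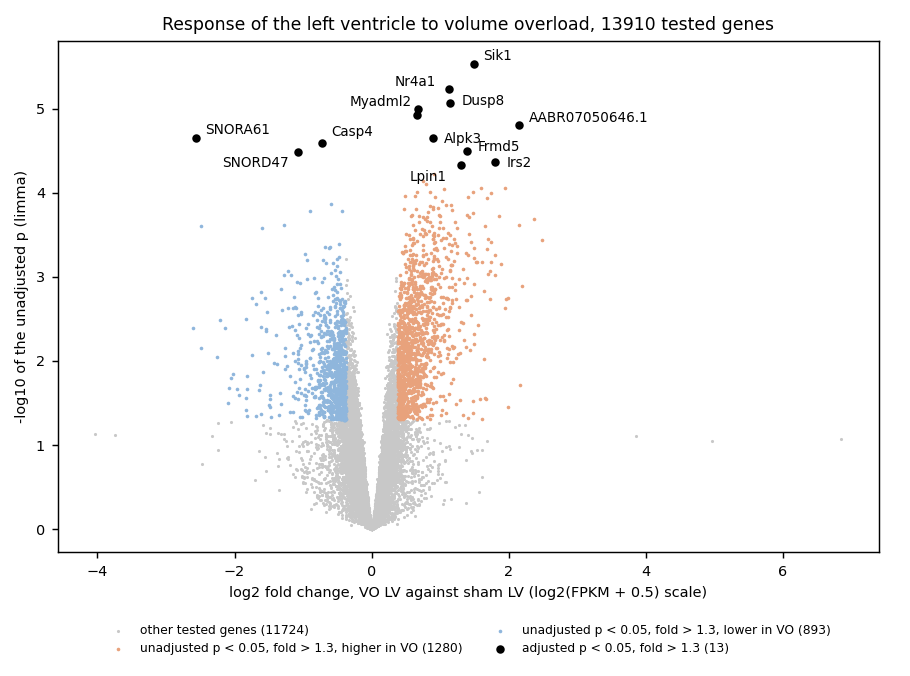
Each point is 1 of the 13910 tested genes, with the log2 fold change of VO LV against sham LV on the x axis and the -log10 of the unadjusted limma p on the y axis. The 13 black points, 12 of them named, passed the adjusted p of 0.05 with a fold over 1.3, and beneath them the genes higher in VO LV (orange) outnumber those lower (blue), as in the counts of 1290 and 896. The 3 grey points at the far right are X-linked transcripts absent from 2 sham LV libraries.

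The 13 genes did not hold against every change of the libraries. No gene passed the adjusted p without sham LV replicate 1 or 2, or without VO LV replicate 1, 2 or 3, with 1361 to 2320 genes at the unadjusted p in these fits, while 295 passed without sham LV replicate 3. The RV libraries share the estimate of the spread, and 5, 4 and 2 genes passed without sham RV replicates 1, 2 and 3, and 174 and 554 without VO RV replicates 1 and 3. With the Y-linked level as a covariate 0 genes passed, with 1332 at the unadjusted p, and the 13 genes had limma adjusted p values of 0.0615 to 0.267, with log2 fold changes 0.907 to 1.17 times those without the covariate. In the 7 libraries without Y-linked transcripts 4 genes passed, none of them among the 13, and 927 were at the unadjusted p. The log2 fold changes of the 13 there were 0.832 to 1.15 times those over 12 libraries, which is a description only, because their sign was fixed by the lack of overlap and sham LV replicate 3 had helped to choose them.

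Among the 10 rises were genes of signaling. Sik1, salt-inducible kinase 1, a kinase induced by cyclic AMP that restrains CREB coactivators, was at 5.05, 4.84 and 4.68 FPKM in the sham LV libraries and at 13, 15.2 and 15.6 FPKM in the VO LV libraries. Its log2 fold change was 1.49 (standard error 0.18, limma adjusted p = 0.0333). Irs2, the adaptor that links the insulin receptor to PI3-kinase, was at 7.27, 3.97 and 5.0 FPKM in sham LV and 18.8, 15.3 and 26.2 FPKM in VO LV. For both genes every VO LV library was more than 2 times the highest sham LV library. The log2 fold change of Irs2 was 1.81 (standard error 0.28, limma adjusted p = 0.0496).

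Nr4a1, an orphan nuclear receptor and immediate early gene, was at 6.26, 7.40 and 6.92 FPKM in sham LV and 13.5, 18.4 and 14.9 FPKM in VO LV (log2 fold change 1.12). Dusp8, a phosphatase that inactivates stress-activated MAP kinases, went from 5.18 ± 0.397 FPKM (SD, n = 3) in sham LV to 12.1 ± 1.07 FPKM in VO LV (log2 fold change 1.15). For both genes the lowest VO LV library lay well above the highest sham LV library. Lpin1, the phosphatidate phosphatase lipin 1, which also acts as a coactivator for fatty acid oxidation genes, was at 3.30, 2.97 and 3.04 FPKM in sham LV and 7.49, 8.46 and 9.18 FPKM in VO LV (log2 fold change 1.3). The limma adjusted p values of Nr4a1, Dusp8 and Lpin1 were 0.0333, 0.0333 and 0.0498.

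The other rises were of varied kinds. Alpk3, the alpha kinase of the sarcomere whose loss causes cardiomyopathy, was at 16.9, 17.1 and 18.9 FPKM in sham LV and 28.9, 36.9 and 33.8 FPKM in VO LV (log2 fold change 0.89). Frmd5, a FERM domain protein of cell adhesion, went from 20.3 ± 3.87 FPKM in sham LV to 53.4 ± 5.78 FPKM in VO LV (log2 fold change 1.39). Myadml2, a membrane protein, had a smaller rise, with a log2 fold change of 0.68. The pseudogene AABR07050646.1 (chromosome 5, 172043518 to 172043928 in the deposited table, whose genome build is not given in the sources used here) went from 13 to 22 reads in the sham LV libraries to 71 to 116 in the VO LV libraries, and its parent gene is not named in the table.

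The 3 falls were those of Casp4 and of 2 small nucleolar RNA genes. Casp4, an inflammatory caspase of the non-canonical inflammasome, was at 8.51, 8.22 and 7.32 FPKM in sham LV and 5.06, 4.83 and 4.12 FPKM in VO LV (log2 fold change −0.72, standard error 0.11, limma adjusted p = 0.0398). SNORD47 went from 64 to 90 reads in the sham LV libraries to 33 to 47 reads in the VO LV libraries (log2 fold change −1.07). SNORA61 was listed at 3, 6 and 6 reads in the sham LV libraries and at 0 in the 3 VO LV libraries, which against a floor of 3 reads per library is at least 1.84-fold lower. SNORA61 lies within Ctage5 on the opposite strand, 2 other tested genes carry its name, and the strand setting of the counting is not given in the sources used here.

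**Figure D2:**
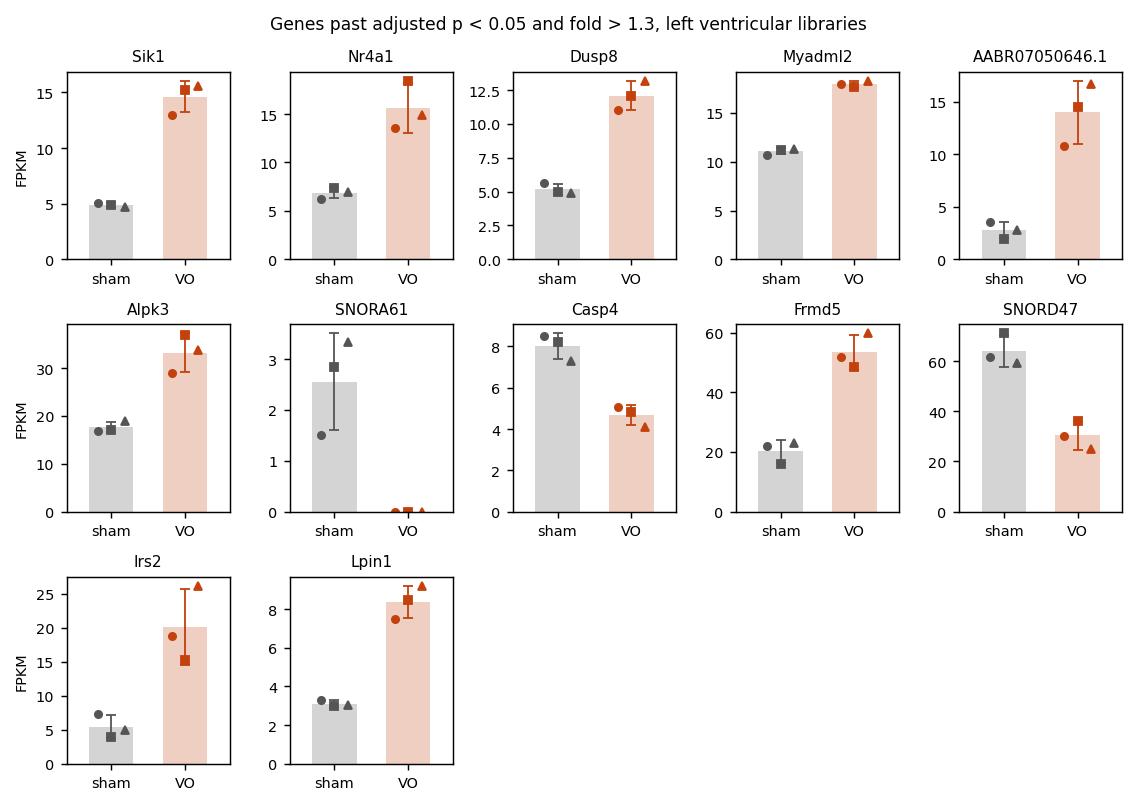
Each panel shows 1 of 12 of the 13 genes, with FPKM on the y axis, sham LV in grey and VO LV in orange; bars are means, error bars the SD of 3 libraries, and circles, squares and triangles replicates 1, 2 and 3. In each panel the sham and VO points do not overlap, and SNORA61 is at 0 in every VO LV library.

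The start regions of Sik1 and Nr4a1 are shown because both genes are known targets of cyclic AMP signaling, and that of Alpk3 as the sarcomeric gene of the 13. RefSeq windows were at hand for 7 of the 13 genes (Sik1, Nr4a1, Dusp8, Myadml2, Alpk3, Frmd5 and Lpin1). Each window runs from 250 bases before to 50 bases after a RefSeq start on GRCr8, a build whose positions need not be those of the deposited table. Capitals mark the short form of the cAMP response element, TGACG, read on either strand (CGTCA on the other), which 21.2% of all 33469 windows hold. It was in the windows of 4 of the 7 genes (Sik1, Nr4a1, Myadml2 and Alpk3). Sik1 (chr20:9958597-9958896, minus strand) holds 2, beginning 191 and 180 bases before the start, Nr4a1 (chr7:134259888-134260187, plus strand) holds 4, and Alpk3 (chr1:144423496-144423795, plus strand) holds 1, beginning 14 bases before the start.
Sik1: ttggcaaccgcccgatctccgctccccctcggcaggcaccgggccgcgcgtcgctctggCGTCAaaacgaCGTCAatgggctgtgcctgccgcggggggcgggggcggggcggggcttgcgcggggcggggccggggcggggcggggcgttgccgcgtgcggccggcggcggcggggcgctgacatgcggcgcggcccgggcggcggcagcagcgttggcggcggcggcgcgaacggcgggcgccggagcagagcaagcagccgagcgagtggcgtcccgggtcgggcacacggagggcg
Nr4a1: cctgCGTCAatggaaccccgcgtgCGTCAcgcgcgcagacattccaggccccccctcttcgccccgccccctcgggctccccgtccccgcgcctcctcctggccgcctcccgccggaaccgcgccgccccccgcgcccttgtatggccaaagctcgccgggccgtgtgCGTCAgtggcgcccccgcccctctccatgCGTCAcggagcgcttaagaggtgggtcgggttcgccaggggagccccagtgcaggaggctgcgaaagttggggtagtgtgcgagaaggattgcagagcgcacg
Alpk3: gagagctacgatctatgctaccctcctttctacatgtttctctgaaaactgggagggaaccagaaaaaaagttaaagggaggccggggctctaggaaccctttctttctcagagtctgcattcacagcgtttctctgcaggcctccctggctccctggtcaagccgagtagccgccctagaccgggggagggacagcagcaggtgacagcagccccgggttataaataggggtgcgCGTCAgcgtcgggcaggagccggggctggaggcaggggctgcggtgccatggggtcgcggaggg
The full element TGACGTCA (1.83% of all windows), the FOXO letters GTAAACA (3.78%), the E-box CACGTG (6.42%) and the AP-1 letters TGANTCA (7.33%) were in none of the windows of these 7 genes. A TATAAA box (14.2% of all windows) was in those of Myadml2 and Alpk3. These matches describe letters and were not tested as sites.

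Genes that respond to load were divided. Of 27 tested natriuretic peptide and load-responsive genes, 11 were higher and 3 lower at the unadjusted p, with a median log2 fold change of 0.34 (−0.02 over all tested genes), and none passed the adjusted p. Nppb, the B-type natriuretic peptide, was at 211, 240 and 229 FPKM in sham LV and 357, 325 and 427 FPKM in VO LV (log2 fold change 0.70, limma adjusted p = 0.109). Nppa, the atrial peptide, was at 519, 844 and 951 FPKM in sham LV and 1073, 610 and 1423 FPKM in VO LV. The groups were apart for Nppb and overlapped for Nppa, whose log2 fold change of 0.39 had a standard error of 1.19. Ankrd1, a stretch-induced regulator at the Z-disc, was at 510.4 to 668 FPKM in sham LV and 743 to 1036 FPKM in VO LV (0.58). Z-disc and filamin genes had log2 fold changes of 1.73 for Synpo2l, 1.00 for Flnc, 0.89 for Xirp1 and 0.56 for Nrap.

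Contractile genes were mostly higher in VO LV. Of 36 tested sarcomere genes 13 were higher and 1 lower at the unadjusted p, with a median of 0.32 (0.24 in the libraries without Y-linked transcripts), and Alpk3 alone passed the adjusted p. The myosin heavy chains were higher together, Myh6, the fast adult form, by 0.55 and Myh7, the slow fetal form, by 0.45 on the log2 scale. Myh6 was at 1544 to 1706 FPKM in sham LV and 2041 to 2787 FPKM in VO LV, and Myh7 at 796 to 857 and 966 to 1279.7 FPKM. Smyd1, the methyltransferase that helps myosin fold, was at 21.7, 18.4 and 25.7 FPKM in sham LV and 57.3, 63.1 and 98.2 FPKM in VO LV (1.68, limma adjusted p = 0.0514). Acta1, skeletal alpha actin, was at 1683 to 2690.4 FPKM in sham LV and 2639.6 to 3273 FPKM in VO LV, so its groups overlapped.

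Calcium cycling and excitation genes followed the same direction. Of 32 tested calcium cycling genes 11 were higher and 0 lower at the unadjusted p (median 0.26). Jph2, junctophilin 2, which holds the sarcoplasmic reticulum beside the T-tubule, was at 46.3, 39.5 and 64.2 FPKM in sham LV and 124, 142 and 185 FPKM in VO LV (log2 fold change 1.59, limma adjusted p = 0.0514). The calcium channel subunit Cacnb2 (1.08), the release channel Ryr2 (0.91) and the calcium pump Atp2a2 (0.74) were also higher, and their groups did not overlap. Of 34 tested ion channel and pump genes 14 were higher and 1 lower (median 0.45). The inward rectifiers Kcnj2 and Kcnj12, which set the resting potential, had log2 fold changes of 1.41 and 1.21, and Kcnj2 was at 1.78 to 2.45 FPKM in sham LV and 5.45 to 8.90 FPKM in VO LV. In the libraries without Y-linked transcripts the medians were 0.25 for calcium cycling and 0.29 for channels.

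Receptors of the autonomic nervous system were among the largest differences. Of 35 tested adrenergic, muscarinic and cyclic AMP genes 17 were higher and 2 lower at the unadjusted p, with a median of 0.46 (0.31 in the libraries without Y-linked transcripts), and none passed the adjusted p. Adra1a, the alpha-1A adrenergic receptor, was at 0.766, 0.665 and 1.63 FPKM in sham LV and 4.19, 4.67 and 6.93 FPKM in VO LV (log2 fold change 1.95, limma adjusted p = 0.0514). Chrm2, the muscarinic receptor that slows the heart, was at 4.48, 3.63 and 6.06 FPKM in sham LV and 15.1, 14.5 and 28.5 FPKM in VO LV (1.89, limma adjusted p = 0.0548). For both genes the third VO LV library was the highest of the 6 and the third sham library the highest of the sham group. The beta-1 receptor Adrb1 (0.81), the adenylyl cyclase Adcy5 (0.84) and the protein kinase A subunit Prkar2a (1.15) were higher with no overlap.

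**Figure D3:**
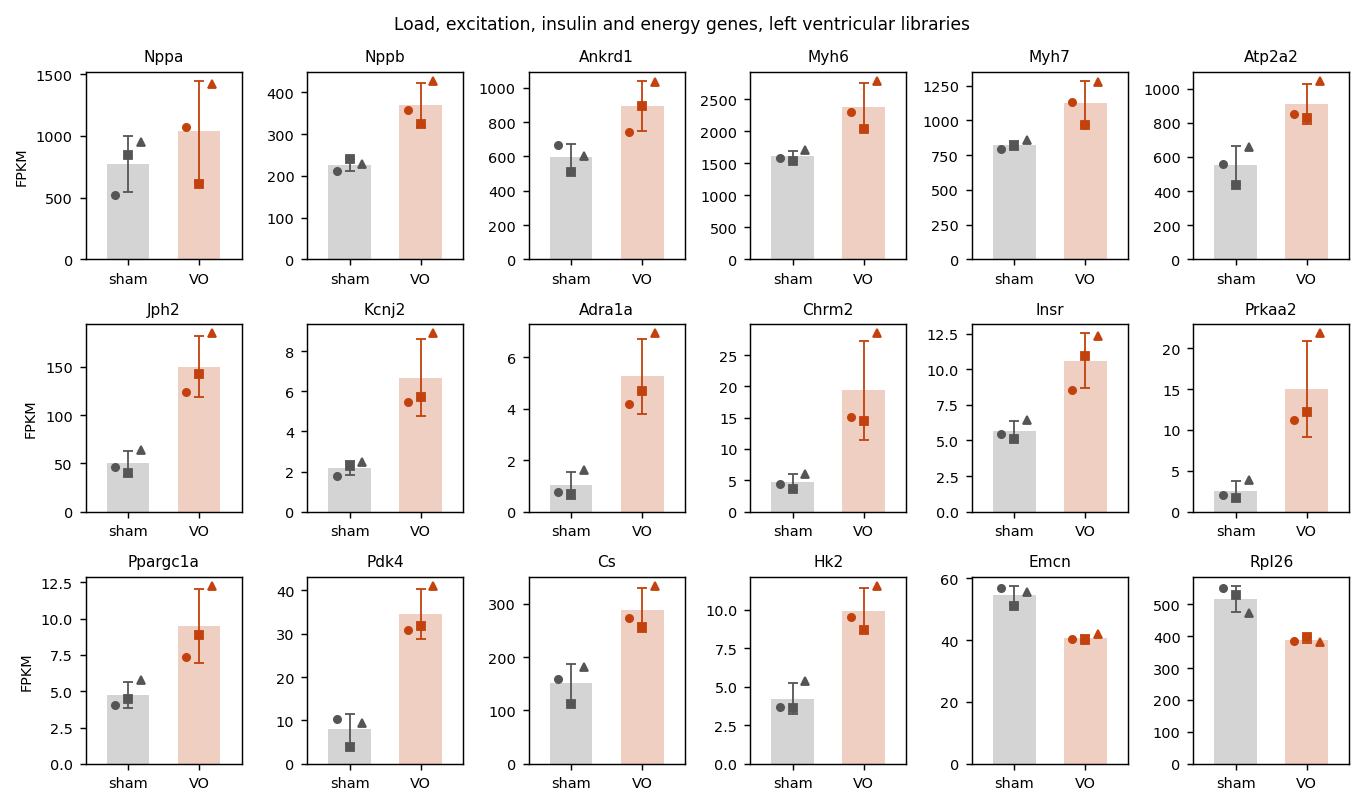
Each panel shows 1 gene, with FPKM on the y axis, sham LV in grey and VO LV in orange; bars are means, error bars the SD of 3 libraries, and circles, squares and triangles replicates 1, 2 and 3. Sham and VO points overlap for Nppa alone among the 18 panels, Emcn and Rpl26 are the panels with lower VO LV values, and VO LV replicate 3 is often the highest.

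Insulin signaling was among the pathways that the study reported as enriched under VO in both ventricles, so the pathway is given by role. Of 46 tested insulin and IGF genes 13 were higher and 0 lower at the unadjusted p, with a median of 0.14 (0.11 in the libraries without Y-linked transcripts), and Irs2 alone passed the adjusted p. The insulin receptor Insr was at 5.42, 5.11 and 6.43 FPKM in sham LV and 8.55, 10.9 and 12.4 FPKM in VO LV (log2 fold change 0.85, standard error 0.15, limma adjusted p = 0.0514). The IGF receptor Igf1r was at 1.91 to 2.59 FPKM in sham LV and 2.97 to 4.23 FPKM in VO LV (0.52, limma adjusted p = 0.187). The adaptor Irs1 overlapped between the groups (0.875 to 1.28 and 1.27 to 2.29 FPKM), unlike Irs2. Downstream, the kinase Akt2 (0.81) and the phosphatase Inppl1, which removes the lipid signal of PI3-kinase (0.58), were higher, both with a limma adjusted p of 0.0514. Of the glucose transporters, the insulin-sensitive Slc2a4 was at 40.4 to 53.6 FPKM in sham LV and 54.9 to 64.0 FPKM in VO LV (limma adjusted p = 0.221), and the constitutive Slc2a1 overlapped.

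FOXO factors are switched off by insulin and drive genes of catabolism. Of 27 tested FOXO factors and targets 10 were higher and 0 lower at the unadjusted p (median 0.31, and 0.10 in the libraries without Y-linked transcripts). Irs2 and Insr are themselves members of this list. Pdk4, the kinase that keeps pyruvate out of the citrate cycle, was at 10.3, 3.96 and 9.5 FPKM in sham LV and 30.9, 31.7 and 41.1 FPKM in VO LV (log2 fold change 2.15, limma adjusted p = 0.0519). Fbxo32, the atrogin-1 ubiquitin ligase, was at 4.28 to 6.63 FPKM in sham LV and 11.8 to 16.6 FPKM in VO LV (1.38). The salt-inducible kinase and CREB list had 6 of 26 genes higher and 1 lower, of which Sik1 and Nr4a1 passed the adjusted p, and the CREB coactivator Crtc2 was lower (15.5 to 16.6 and 10.6 to 14.1 FPKM, −0.40, limma adjusted p = 0.136).

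Prkaa2, the catalytic alpha-2 subunit of AMP-activated kinase, had the second largest positive log2 fold change among genes named by the rule, 2.37 (standard error 0.44, limma adjusted p = 0.0519). It was at 2.01, 1.67 and 3.86 FPKM in sham LV and 11.2, 12.2 and 21.8 FPKM in VO LV, or 72 to 142 reads against 479 to 988 reads. Every VO LV library thus held more than 3 times the reads of any sham library. Of the 19 genes of the kinase's list, Prkaa2 included, 3 were higher and 0 lower, and the median was 0.02. Thyroid hormone genes had 8 of 28 higher and 1 lower (median 0.20). The receptors Thra and Thrb had log2 fold changes of 0.31 and 0.90. Thra was at 39.8, 34.3 and 39.97 FPKM in sham LV and 47.5, 47.4 and 46.4 FPKM in VO LV, and neither receptor passed (limma adjusted p = 0.101 and 0.0776).

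Regulators of energy metabolism and the lists for each fuel had medians above 0, and Lpin1 alone of their genes passed the adjusted p. Of 21 tested PGC-1, PPAR and ERR regulators 8 were higher and 0 lower (median 0.26), led by Lpin1, Ppara (0.92) and Ppargc1a (0.92). Ppargc1a, the PGC-1 alpha coactivator of mitochondrial genes, was at 4.06, 4.44 and 5.75 FPKM in sham LV and 7.34, 8.89 and 12.3 FPKM in VO LV (limma adjusted p = 0.054), while its partner Esrra (0.27) had a limma adjusted p of 0.321. Of 46 glucose and glycogen genes 13 were higher and 0 lower (median 0.26), among them hexokinase Hk2 (1.15), Pfkp (0.59) and the lactate carrier Slc16a1 (0.88). Of 44 fatty acid genes 10 were higher and 1 lower (median 0.14), among them Acsl1, which activates long-chain fatty acids (94.1 to 122 and 136 to 165 FPKM, 0.44, limma adjusted p = 0.0976).

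Of 21 branched-chain amino acid genes 9 were higher and 0 lower (median 0.33), with Acadsb at 0.70 and the phosphatase Ppm1k, which switches the pathway on, at 1.00. In the libraries without Y-linked transcripts 0 of the 21 were at the unadjusted p, with a median of 0.20. Of 30 citrate cycle genes 7 were higher and 1 lower (median 0.24). The cycle's first enzyme Cs, citrate synthase, was at 159, 111 and 182 FPKM in sham LV and 273, 257 and 334 FPKM in VO LV (0.95, limma adjusted p = 0.054), and the dehydrogenase Ogdh had a log2 fold change of 1.80. Respiratory chain genes had medians below 0. Of their 81 nuclear-encoded genes 4 were higher and 7 lower (median −0.11). Of the 11 mitochondrially encoded genes, with a median of −0.16 (above 0 with quantile normalization), 0 were at the unadjusted limma p in either direction. These genes are short, with median lengths of 726 (nuclear-encoded) and 684 bases (mitochondrially encoded). All 1811 tested genes of 200 to 999 bases had a median of −0.13.

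**Figure D4:**
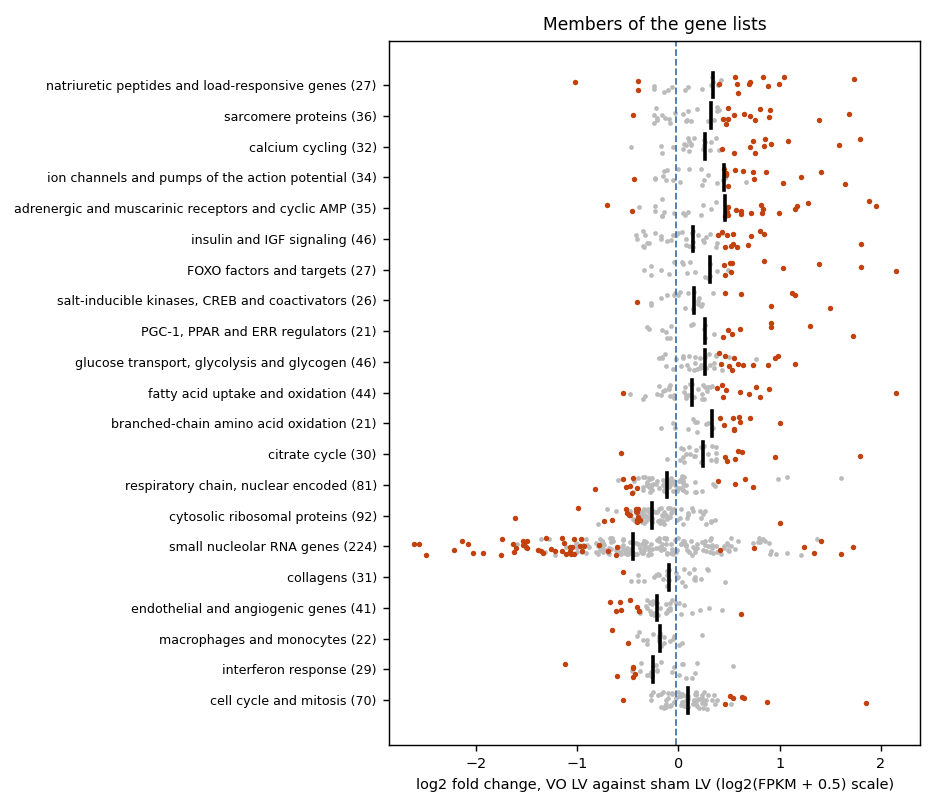
Each point is a tested member of a gene list (numbers of members in brackets), with the log2 fold change of VO LV against sham LV on the x axis; orange points had an unadjusted limma p under 0.05 and a fold over 1.3, black bars are list medians and the dashed line is the median of all tested genes (−0.02). The medians of the contractile, excitation, insulin and fuel lists lie to the right of the line, and those of the ribosomal (−0.26), small nucleolar RNA (−0.44), endothelial (−0.21) and interferon (−0.25) lists to its left.

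Cytosolic ribosomal protein and small nucleolar RNA genes had medians below 0. Of 92 tested cytosolic ribosomal protein genes 1 was higher and 17 were lower at the unadjusted p (median −0.26), and for 46 of them the VO LV libraries lay wholly below the sham LV libraries, against 2179 of 13910 genes in all. Rpl26 was at 551, 530 and 472 FPKM in sham LV and 385, 397 and 382 FPKM in VO LV (log2 fold change −0.41, limma adjusted p = 0.073). Many ribosomal genes have near-identical pseudogenes that share reads, so single members are uncertain. Of 224 small nucleolar RNA genes, whose products guide the modification of ribosomal RNA, 7 were higher and 43 lower (median −0.44), and most had few reads. Of 31 mTOR and translation control genes 4 were higher and 0 lower (median 0.17), near the 9.27% of all tested genes that were higher, and of 73 mitochondrial ribosomal protein genes 1 was higher and 1 lower (median −0.02). One of the genes named SNORA2, at 7, 7 and 8 reads in sham LV and 2, 1 and 3 reads in VO LV, was an example of a small nucleolar RNA gene.

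These groups are of short genes, and the fold changes moved with gene length. The median log2 fold change was −0.29 for the 575 tested genes under 200 bases, −0.13 for the 1811 of 200 to 999 bases, −0.06 for the 3936 of 1000 to 1999 bases, 0.02 for the 5017 of 2000 to 3999 bases and 0.04 for the 2571 of 4000 bases and over. By the study's methods, libraries were made from poly-A RNA and selected for fragments longer than these small RNAs. With each library's length trend removed, the median of the small nucleolar RNA genes went from −0.44 to −0.11 with 13 higher and 23 lower, and that of the ribosomal protein genes from −0.26 to −0.14 with 5 lower. The medians of the sarcomere (0.28), channel (0.40), adrenergic (0.42) and glycolysis (0.24) lists changed less.

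Marker lists of several other cells of the heart wall had medians below 0. In bulk tissue fewer cells of a type and less RNA per cell cannot be told apart. Of 41 endothelial and angiogenic genes 1 was higher and 8 lower (median −0.21), and their summed level was 1579 to 1752 FPKM in sham LV and 1297 to 1455 FPKM in VO LV, which did not overlap. Emcn, endomucin of capillaries and veins, was at 57.0, 51.0 and 55.6 FPKM in sham LV and 40.5, 40.1 and 41.8 FPKM in VO LV (−0.41, limma adjusted p = 0.0803). Esam (−0.39), Sox17 (−0.61) and Dll4 (−0.48) were lower in the same way. The summed level of 11 fat markers was also lower without overlap (922 to 1168 and 639 to 813 FPKM). Most of it was Fabp4 (813 to 1100 and 536 to 673 FPKM), and Plin4 was higher (0.88). Of 5 tested fat markers 2 had positive log2 fold changes and 3 negative ones. The sum of 12 liver markers, 2 of them above 1 FPKM in sham LV, was 36.2 to 42.0 and 33.4 to 34.3 FPKM. That of 13 skeletal muscle markers was higher (2393 to 3659 and 3697 to 4372 FPKM). Only 4 of the 13 were tested, with 2 positive and 2 negative log2 fold changes, and Tnnt3 was lower (−0.73). Mural cell and smooth muscle markers overlapped (1225 to 1409 and 1363 to 1442 FPKM). The endothelial markers named here remained well above 0, and the part of the cell makeup in the results above was not tested.

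Immune genes are given beside the 6.44% of all tested genes that were lower. Of 29 interferon response genes 0 were higher and 6 lower (median −0.25), among them Isg20 (−1.12), Rsad2 (−0.45) and Irf1 (−0.45). Of 25 inflammasome genes 0 were higher and 2 lower (median −0.14), namely Casp4 and the adaptor Pycard (3.89 to 5.92 FPKM in sham LV and 2.28 to 3.60 FPKM in VO LV). Casp1, the canonical inflammatory caspase, overlapped between the groups. Of 22 macrophage genes 0 were higher and 2 lower (median −0.18), with summed levels of 287 to 323 FPKM in sham LV and 268 to 324 FPKM in VO LV. The inflammasome and macrophage counts were thus near the share over all tested genes. The macrophage levels overlapped, and the summed inflammasome levels, 182 to 189 FPKM in sham LV and 166 to 170.3 FPKM in VO LV, did not. Of 10 lymphocyte and neutrophil genes 0 were higher and 3 lower (median −0.26), with overlapping summed levels of 39.5 to 52.5 FPKM and 24.6 to 42.7 FPKM. Red blood cell genes had a median of −0.40 with 1 of 11 higher and 0 lower at the unadjusted p, and their sums of 13420 to 17380 FPKM and 8719 to 13860 FPKM overlapped.

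Few matrix genes were at the unadjusted p. Of 31 collagen genes 0 were higher and 1 lower (median −0.09), with Col1a1 at 561, 579 and 550 FPKM in sham LV and 506, 463 and 498 FPKM in VO LV (−0.20, limma adjusted p = 0.672). Col3a1 was at 1245 to 1370.2 FPKM and 988 to 1193 FPKM (−0.22). Of 16 fibroblast markers none was at the unadjusted limma p in either direction (median −0.21). For 5 of the 16 the VO LV libraries lay wholly lower, against 2179 of 13910 genes in all. The summed level of the fibroblast markers did not overlap (2963 to 3181 FPKM in sham LV and 2373 to 2914 FPKM in VO LV). The collagen sums overlapped, with 8 of the 31 genes wholly lower, while the sums of 48 other matrix proteins and remodeling enzymes did not (4085 to 4526 and 3845 to 4009 FPKM). Of 70 cell cycle and mitosis genes 7 were higher and 1 lower (median 0.10), the higher count near the 9.27% of all tested genes that were higher. Mki67, the proliferation antigen, was at 12.8, 11.1 and 13.1 FPKM in sham LV and 13.9, 11 and 14.1 FPKM in VO LV. Ccnd2, cyclin D2, stood apart from these, at 18.9, 20.6 and 31.2 FPKM in sham LV and 64.3, 80.7 and 116 FPKM in VO LV (log2 fold change 1.85, limma adjusted p = 0.0514).

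Of the microRNA genes that the study measured, only precursors can be read in such libraries, and few reads lay on them. Mir221 had 3, 2 and 4 reads in the sham LV libraries and 1, 0 and 0 in the VO LV libraries (log2 fold change −1.82, limma adjusted p = 0.129). Mir21 had 15, 4 and 6 reads and 5, 9 and 4 reads, which overlap. Mir222 was at 0 reads in all 6. The groups did not overlap for Mir221, at an unadjusted limma p of 0.0149, and with so few reads it did not pass the adjusted p.

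The LV response differed from the RV response at an adjusted p under 0.05 with a fold over 1.3 for 583 of 13910 genes (4.19%), tested as an interaction, with 481 higher in the LV response and 102 lower. Of the 583, 515 (88.3%) were among the 2186 genes at the unadjusted p in the LV, which are 23.6% of those 2186. The 2186 are 15.7% of all tested genes. Both tests contain the difference of VO LV and sham LV, so this overlap was partly set in advance. In the RV, sham replicate 1 and VO replicate 2 stood apart in atrial markers, with mean log2 levels of 6.26 and 8.22 against 2.53 to 3.25 in the other 10 libraries. With the atrial marker level as a covariate 1213 genes passed. Without sham RV replicate 1 no gene passed (2595 at the unadjusted limma p), while without sham RV replicate 2 there were 4, and without VO RV replicates 1, 2 and 3 there were 1004, 924 and 110. Nor did any gene pass without sham LV replicate 1 or 2, or without VO LV replicate 2 or 3 (2383 to 3172 at the unadjusted p), 239 passed without VO LV replicate 1, and 2 passed in the libraries without Y-linked transcripts.

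Of the 13 genes, 10 passed this test (4.19% of all tested genes did), with opposite signs in the ventricles for all but SNORA61. The 13 were chosen on the LV difference that this test contains, so their share was partly set in advance. The fitted value of SNORA61, at 0 reads in VO LV, depends on the pseudocount and was −4.66 to −1.79 in the LV over the settings tried. Alpk3 had log2 fold changes of 0.89 in the LV and −0.44 in the RV (difference 1.33, limma adjusted p = 0.0246), Lpin1 1.3 and −0.42 (difference 1.72, limma adjusted p = 0.0249), and Casp4 −0.72 and 0.30 (difference −1.02, limma adjusted p = 0.0249). Sik1, Nr4a1 and Irs2 had positive values in both ventricles, 0.80, 0.91 and 0.56 in the RV, and for them the difference did not pass (limma adjusted p = 0.12, 0.513 and 0.0897). Nppb had log2 fold changes of 0.70 (LV) and 0.83 (RV), and their difference was −0.13 (standard error 0.32). The metabolic and contractile genes Prkaa2 (2.37 and −1.20), Insr (0.85 and −0.41), Ppargc1a (0.92 and −0.40), Myh6 (0.55 and −0.34), Myh7 (0.45 and −0.73) and Acsl1 (0.44 and −0.50) had opposite signs and passed the test of the difference. In the RV itself 0 genes passed the adjusted p with a fold over 1.3, and 683 were at the unadjusted p. The RV limma adjusted p values of these metabolic and contractile genes were 0.366 to 0.606, so their negative RV values were not called as falls.

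**Figure D5:**
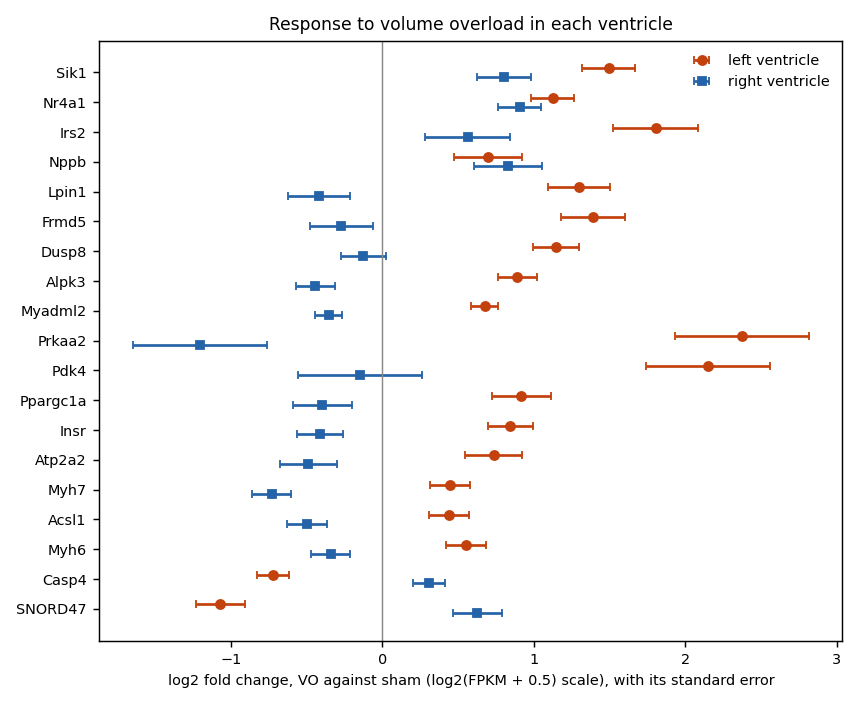
For 19 genes, the log2 fold change of VO against sham is plotted for the LV (circles) and the RV (squares) with its standard error from the 4-group fit. Sik1, Nr4a1, Irs2 and Nppb lie to the right of 0 in both ventricles, and the other genes lie on opposite sides or, for Dusp8 and Pdk4, near 0 in the RV.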

How the data were processed

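LV and RV free wall RNA of Sprague-Dawley rats at P7 was sequenced in 12 libraries, 3 each of sham LV, VO LV, sham RV and VO RV. The authors aligned cleaned reads with HISAT2 2.0.5, counted reads per gene with featureCounts 1.5.0-p3 and deposited the values as FPKM; the submitters' processing notes also name StringTie 1.3.3b. Genome build, annotation and strand setting are not given in the sources used here. Values under 200 reads, multiplied by gene length, were whole within 0.02 (100%), which gave back reads per gene.

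After scaling by median-ratio size factors, genes whose mean FPKM reached 0.5 were fitted as log2(FPKM + 0.5) in R 4.3.3 with limma 3.58.1 (trended eBayes) in 1 model of the 4 groups. Fold changes on this scale understate those of low genes. P values were adjusted by Benjamini-Hochberg over 13910 genes; genes were called (DEGs) at 0.05 with a fold above 1.3. With 3 against 3, an exact permutation p cannot go below 0.10. DESeq2, the authors' tool, was not run.

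On simulated data of 13910 genes with 200 changed in VO LV, the fit called 3 of 62 changed 1.5-fold, 53 of 66 changed 2-fold, 70 of 72 changed 4-fold, and 7 unchanged genes. The simulation gave every gene and library the same dispersion, so these rates need not hold for the real libraries.

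Members and lists were chosen with earlier results of these data known. Genes named are all DEGs, the 10 largest differences each way (unadjusted p under 0.05, at least 1 FPKM, no overlap), up to 4 of each list by p, and a few anchor genes; of the 263 so selected, those of the groups described are given, and 1 DEG is not reported here. Alternatives were other scalings, pseudocounts, filters, weights, covariates, library sets and voom on the recovered reads.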

Additional observations from a re-analysis of the deposited data

Results flagged for a closer look

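The LV and RV responses to VO differed for 583 genes (4.19% of all tested genes) by the limma test of the interaction. Among them were 56 of the genes named in the text, 51 with a higher response in the LV and 5 with a lower one. Most genes were named for their LV values, so this tally was partly set by the choice. All values below are the response of the LV minus that of the RV on the log2 scale. Among signaling and metabolic genes the difference was 3.58 for Prkaa2, 2.76 for Ogdh, 2.30 for Pdk4, 2.25 for Fbxo32, 1.72 for Lpin1, 1.54 for Ppara, 1.54 for Slc16a1, 1.31 for Ppargc1a, 1.301 for Cs, 1.27 for Dusp8, 1.26 for Insr, 1.04 for Akt2, 1.02 for Inppl1, 0.94 for Acadsb and 0.94 for Acsl1. Among receptors, channels and calcium genes it was 3.39 for Adra1a, 2.93 for Chrm2, 2.45 for Jph2, 2.43 for Kcnj2, 2.07 for Kcnj12, 1.71 for Prkar2a, 1.67 for Cacnb2, 1.61 for Ryr2, 1.33 for Adcy5, 1.26 for Adrb1 and 1.23 for Atp2a2. Among sarcomere and Z-disc genes it was 2.68 for Smyd1, 2.61 for Synpo2l, 1.34 for Flnc, 1.33 for Alpk3, 1.24 for Xirp1, 1.18 for Myh7, 0.89 for Myh6 and 0.86 for Nrap. Among regulators of transcription, splicing and growth it was 2.76 for Ccnd2, 2.73 for Tbx20, 2.24 for Nr3c2, 1.96 for Tsc22d3, 1.8 for Mob1b, 1.597 for Hand1, 1.59 for Tead1, 1.44 for Yap1, 1.44 for Celf1, 1.38 for Myocd, 1.11 for Mef2d, 0.93 for Srf and 0.84 for Rbm20. It was 3.24 for LOC100912538, 3.06 for the pseudogene AABR07050646.1, 1.66 for Frmd5 and 1.03 for Myadml2. The response was lower in the LV for Rpl26 (−0.73), Casp4 (−1.02), SNORD47 (−1.70) and 1 of the genes named SNORA2 (−2.45), and for SNORA61 the fitted −2.54 depends on the pseudocount, since it was at 0 reads in VO LV. No single library was tested as an outlier, because every group had 3.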

How the results depend on the processing

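The count of 13 DEGs depended on the fit. It was 56 with a pseudocount of 0.1, 5 with all genes above 0, 183 with a mean of at least 1 FPKM, 704 with array weights, 0 with the Y-linked covariate (1332 at the unadjusted limma p), 324 with the atrial marker covariate, 5 with the gene-length trend removed, 339 with voom on the recovered reads, 262 among protein-coding genes and 120 with the 6 LV libraries alone. Chosen after seeing the data, the libraries without Y-linked transcripts gave 4 (927 at the unadjusted p), and an adjusted p under 0.10 gave 954. Leaving out 1 library at a time gave 0 to 554 DEGs and 1361 to 2702 genes at the unadjusted p. All 13 DEGs were also called with array weights and with voom. The 583 genes whose response differed between the ventricles became 21 with all genes above 0, 1045 with array weights, 203 with the Y-linked covariate, 1213 with the atrial marker covariate, 2 in the libraries without Y-linked transcripts, and 0 to 1004 with 1 library left out. The cause was not tested for any of these.

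With a replicate block 3 DEGs and 1 gene with a differing response were called. Deviations from the group means correlated at −0.008, 0.076 and 0.115 between sham LV and VO LV libraries of numbers 1, 2 and 3. Sham LV replicates 2 and 3 correlated best with the VO LV library of their own number, and sham LV replicate 1 with VO LV replicate 3 (0.017). Deviations sum to 0 within each group of 3, so these values cannot decide whether the numbers pair sham LV and VO LV libraries. For LV and RV libraries of the same operation and number the correlations were 0.045, 0.038 and 0.123 in sham and 0.054, −0.051 and −0.218 in VO. The presence of Y-linked transcripts was the same in 5 of these 6 pairs and differed for VO replicate 3, so the numbers did not pair the ventricles throughout. Few named genes changed sign. Nppa was at −0.22 with the Y-linked covariate. Slc2a1 was at −0.0653 in the libraries without Y-linked transcripts and at −0.0297 to 0.361 with 1 library left out, its lowest value being without VO LV replicate 3. Mki67 was at −0.0322 with the length trend removed, at −0.0179 in the libraries without Y-linked transcripts and at −0.00046 to 0.181 with 1 library left out, the lowest without sham LV replicate 2. Mir21 was at −0.846 to 0.0542 with 1 library left out, the highest without sham LV replicate 1. Few reads per gene limit the microRNA and small nucleolar RNA values. Other genes kept their sign while the size moved, as for Ogdh (1.07 to 2.16 over the settings tried), Slc16a1 (0.53 to 1.06) and Hand1 (0.37 to 0.87).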

Other observations

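None of the genes in this paragraph passed the adjusted p of 0.05. Of 25 tested calcineurin, NFAT and MEF2 genes 10 were higher and 1 lower at the unadjusted limma p with a fold over 1.3 (9.27% and 6.44% of all tested genes), with a median log2 fold change of 0.24. Srf, the serum response factor that drives sarcomere genes, was at 38.2, 35.3 and 42.6 FPKM in sham LV and 53.2, 59.2 and 77.9 FPKM in VO LV (log2 fold change 0.69). Its partner Myocd had a log2 fold change of 0.77, Gata4 0.74 and Mef2d 0.68. The libraries of the groups did not overlap for any of these 4 genes. Of 19 Hippo pathway genes 5 were higher and 1 lower (median 0.12), with Mob1b, a coactivator of the LATS kinases, at 1.14, and the effectors Yap1 (0.86) and Tead1 (0.92), which form 1 complex on DNA, both higher. Tbx20, a T-box factor of the heart, was at 13.1, 7.57 and 15.8 FPKM in sham LV and 37.3, 46.1 and 59.4 FPKM in VO LV (1.96, limma adjusted p = 0.0663), and Hand1, a factor of the left ventricle, had a log2 fold change of 0.70.

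Of 58 nucleotide and one-carbon genes 9 were higher and 2 lower (median 0.08), and 2 were higher in the libraries without Y-linked transcripts. In the 12-library fit the ribonucleotide reductase subunits Rrm2 (0.87) and Rrm1 (0.42), which make deoxynucleotides, were higher, Rrm2 at 10.3 to 15.2 FPKM in sham LV and 19 to 25.6 FPKM in VO LV. Ampd3, an AMP deaminase, was also higher (0.51). Of 23 glucocorticoid receptor and target genes 6 were higher and 0 lower (median 0.09), among them Tsc22d3, a steroid-induced leucine zipper (1.21), and the mineralocorticoid receptor Nr3c2 was at 0.305 to 1.04 FPKM in sham LV and 1.904 to 3.32 FPKM in VO LV. Of 73 splicing factor genes 7 were higher and 7 lower (median −0.07), with Rbm20, the splicing factor of titin (0.56), and Celf1 (0.86) higher. Of genes in no list, LOC100912538 (2.49) and Exoc7, an exocyst subunit (2.19), had log2 fold changes over 2 with no overlap of the groups.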
